A study of Mus musculus with 4 samples.

Results

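Smooth muscle and actomyosin genes were described in sorted palatal mesenchyme of mouse embryos with and without Foxf2. The set was given by gene symbol, chosen with earlier results of these data known, and held 10 genes of the 21282 with a usable value: Acta2, Actg2, Tagln, Cnn1, Cnn2, Myl9, Myh9, Myh10, Myh11 and Tpm1. All 10 were found. RNA-seq was performed on RFP-positive cells from the palate of 4 embryos at E13.5, each sequenced separately. Both mutant embryos were Foxf2-/-, homozygous for a Foxf2 null allele in every cell, and the controls were 1 Foxf2+/+ and 1 Foxf2+/- embryo. All 4 embryos, controls included, carried Osr2RFP/+, a red fluorescent reporter knocked into Osr2, so the sorted cells were those that express Osr2 and had 1 modified Osr2 allele. The strain background was mixed. With a single embryo of each control genotype, the spread within a control genotype is unknown. Levels are in FPKM, fragments scaled by transcript length and by all mapped fragments of the library, and are given for the Foxf2+/+ embryo, the Foxf2+/- embryo and Foxf2-/- embryos 1 and 2 in that order.

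Contraction in smooth muscle and tension in other cells come from the same machine: bipolar filaments of class II myosin pull on actin filaments. Each myosin has a pair of heavy chains, which hold the motor, and regulatory light chains, whose phosphorylation turns the motor on. Tropomyosin, calponin and transgelin lie along or bind the actin filament. Smooth muscle uses its own heavy chain (Myh11) and actins (Acta2, Actg2), whereas non-muscle cells use Myh9 and Myh10 with the cytoplasmic actins Actb and Actg1. Many of these genes are targets of serum response factor (SRF), which binds the CArG box, a run of A and T flanked by C and G pairs, and which is helped by myocardin in smooth muscle and by the myocardin-related factors Mkl1 and Mkl2 in other cells.

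Promoter sequence is shown for 3 members because their promoters differ in the CArG box, the site that SRF binds. Reference promoters (RefSeq, GRCm38.p6, 250 bases before to 50 bases after the start) were held for 7 of the 10 members: Acta2, Cnn1, Cnn2, Myl9, Myh9, Myh10 and Tpm1. The search used both strands, and the CArG box reads alike on both. A CArG box stood in 2 of the 7, Cnn2 and Myl9, and in 1.63% of all 32851 promoters. With 1 of the 6 inner letters allowed to be C or G, 9.98% of all promoters held a match, among them that of Acta2. In the bases before the start of each gene, given 5′ to 3′, capitals mark the CArG box or a match 1 letter from it.

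Cnn2, chr10:79988350-79988599, plus strand: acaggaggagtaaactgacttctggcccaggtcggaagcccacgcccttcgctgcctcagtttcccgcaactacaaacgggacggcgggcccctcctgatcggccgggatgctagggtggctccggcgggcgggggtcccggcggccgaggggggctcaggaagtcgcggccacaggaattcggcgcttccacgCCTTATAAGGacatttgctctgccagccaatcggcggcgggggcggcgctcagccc

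Myl9, chr2:156775214-156775463, plus strand: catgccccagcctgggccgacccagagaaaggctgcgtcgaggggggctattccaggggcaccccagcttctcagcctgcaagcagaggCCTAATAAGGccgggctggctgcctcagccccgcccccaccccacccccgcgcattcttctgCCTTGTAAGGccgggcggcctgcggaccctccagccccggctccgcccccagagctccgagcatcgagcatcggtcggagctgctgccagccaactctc

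Acta2, chr19:34255374-34255623, minus strand: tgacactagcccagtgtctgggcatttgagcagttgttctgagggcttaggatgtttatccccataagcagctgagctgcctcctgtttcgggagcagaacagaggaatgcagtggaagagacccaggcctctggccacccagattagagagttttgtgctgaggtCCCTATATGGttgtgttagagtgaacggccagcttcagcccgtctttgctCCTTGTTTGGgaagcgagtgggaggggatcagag

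The box of Cnn2 began 56 bases before the start and holds the letters TATAA, so it overlaps a TATA-like motif. In Myl9 the CArG box began 161 bases before the start, and a match with 1 changed letter began 99 bases before it. Both matches of Acta2 have 1 changed letter and began 84 and 34 bases before the start. The forkhead core GTAAACA, searched on both strands, was in none of the 7 member promoters and in 3.65% of all promoters. These are matches of letters in a short window and were not tested as binding sites.

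Foxf2, the targeted gene, was at 85.4, 45.1, 1.41 and 2.28 FPKM. It was lower in both Foxf2-/- embryos than in either control, with a log2 difference of -5.03 ± 0.29 (SE; limma, adjusted p = 0.000322). Foxf1a, its closest relative, was at 77.7, 98.5, 77.4 and 91.6 FPKM (log2 difference -0.06, limma, adjusted p = 0.882). Osr2, whose reporter was sorted, was at 129 to 147 FPKM in all 4 embryos. The files hold no read counts. From the ratio of coverage to FPKM, the depths of the other libraries relative to Foxf2+/+ were 1.19, 1.02 and 1.14, and the number of reads is unknown. Differences are means of log2(FPKM + 0.1) in Foxf2-/- minus control, a scale that understates changes of genes with low FPKM. Genes with at least 5 FPKM in at least 1 embryo were tested with limma, 7377 in all, and Benjamini-Hochberg adjusted p-values under 0.05 were called. Over these genes the median log2 difference was -0.08, with 90% of genes between -0.34 and 0.20. With 2 embryos against 2, an exact permutation test cannot give a two-sided p below 0.333. Fewer cells of a type cannot be told apart from less RNA per cell in these bulk samples.

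The 10 genes were expressed at very different levels. Tpm1 stood highest, with a mean of 261 FPKM over the 4 embryos, and was followed by Cnn2 (52.2 FPKM), Myh10 (42.7 FPKM) and Myl9 (34.0 FPKM). Myh9 followed at 9.94 FPKM and Acta2 at 3.29 FPKM. Myh11 and Tagln both had a mean of 0.69 FPKM, and Actg2 (0.081 FPKM) and Cnn1 (0.031 FPKM) were close to 0. The ranges over the 4 embryos overlapped between Cnn2 and Myh10, between Myh10 and Myl9, between Myh11 and Tagln, and between Actg2 and Cnn1, and those of the other neighbours in this order did not overlap. The members listed as non-muscle or broad (Tpm1, Cnn2, Myh10 and Myh9) each stood above 5 FPKM, and of the 6 listed as smooth muscle contractile Myl9 alone did.

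**Figure D1:**
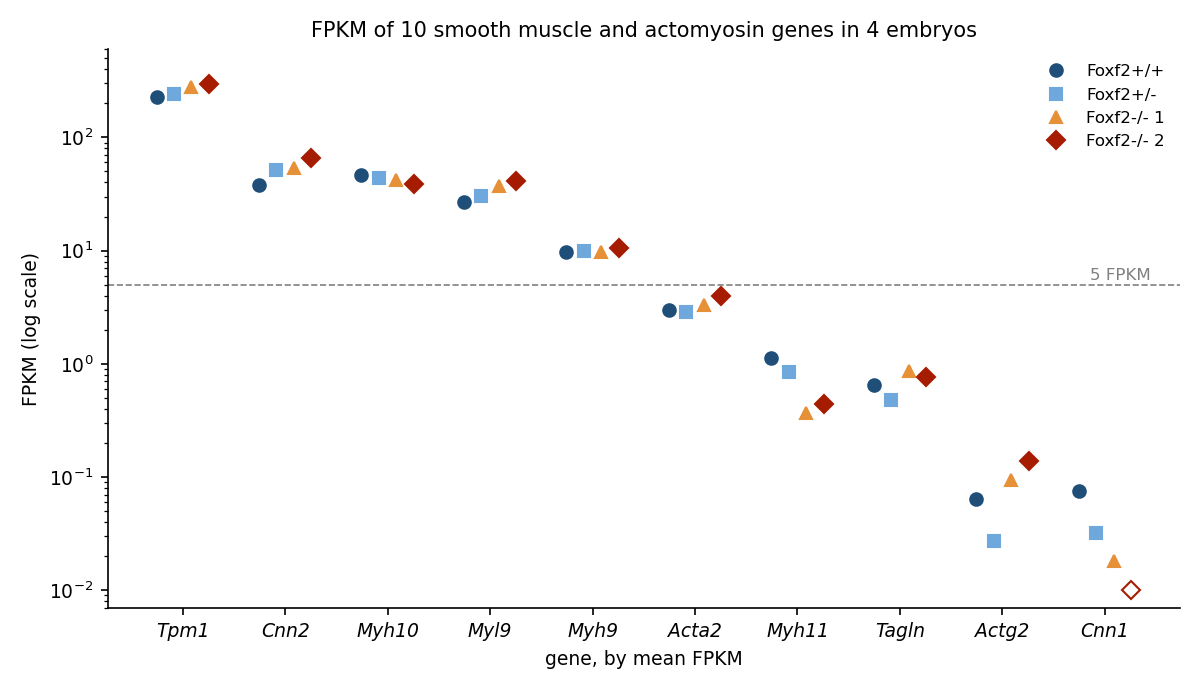
FPKM on a log axis for each of the 10 genes, ordered by mean FPKM, with 1 symbol per embryo and a dashed line at 5 FPKM; the open symbol at the lower edge marks Cnn1 in Foxf2-/- embryo 2, which is listed at 0. Tpm1 lies near 261 FPKM, 5 genes stand above the line in every embryo, and the Foxf2-/- symbols of Myl9, Tpm1 and Cnn2 lie above both controls.

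No member passed the limma test: 0 of the 5 tested members were called, against 7 of all 7377 tested genes (0.0949%). At an unadjusted p under 0.05 there were 3 of 5 members (Myl9, Tpm1 and Cnn2), against 14.7% of all tested genes. Both Foxf2-/- embryos lay above both controls in these 3, 3 of 5 members against 8.66% of all tested genes, and below them in Myh10, so 4 of 5 did not overlap against 47.4% in either direction. Most genes whose groups did not overlap were lower in the mutants: 2859 lower and 639 higher. After the embryos were rescaled by median ratios the split over all genes became 1625 lower and 1609 higher. On that scale, 44.0% of genes did not overlap in either direction and 21.9% were higher in the mutants. Myl9, Tpm1 and Cnn2 remained higher, Myh9 became higher as well and the groups of Myh10 overlapped, so 4 of 5 tested members were then higher. Their median log2 difference was 0.29 as deposited. None of the 5 tested members was past 1.5-fold against both controls, a step that 0.637% of all tested genes passed.

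Among the 5 members under 5 FPKM, both Foxf2-/- embryos lay outside both controls in 5 of 5, against 35.6% of the 9768 genes that were above 0 in at least 1 embryo and under 5 FPKM in every embryo. They were higher in 3 of these, Acta2, Tagln and Actg2, against 14.3% of such genes, and lower in Myh11 and Cnn1. Mean read coverage reached at most 0.215 for Actg2 and 0.101 for Cnn1, so the order of the embryos in both rests on very little signal. Myh11 alone of the 5 was past 1.5-fold against both controls, which 6.05% of such genes were. None of the 5 passed limma when the filter was lowered or dropped, as given with each gene. Foxf2-/- embryo 2 had the highest value of the 4 embryos in 6 of the 10 genes. The Foxf2+/- embryo lay between the Foxf2+/+ embryo and both Foxf2-/- embryos in 6 of the 10, among them the low genes Myh11 and Cnn1. The share of all genes with either pattern was not computed, so neither count is read as a trait of the members.

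**Figure D2:**
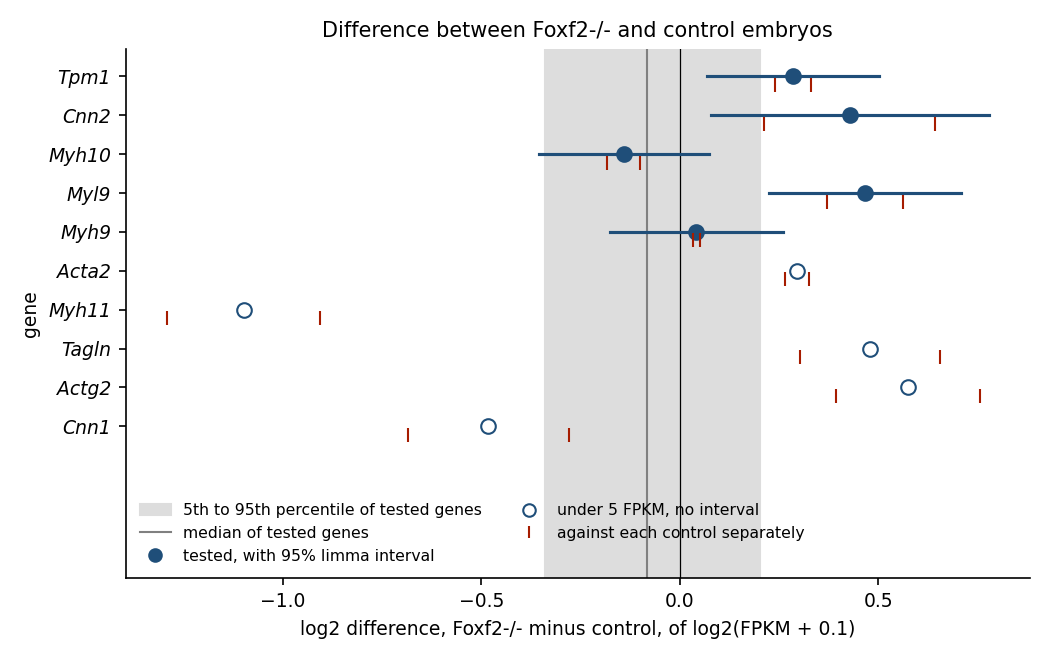
Log2 difference, Foxf2-/- minus control, on log2(FPKM + 0.1) for each gene; filled circles are tested genes with their 95% limma interval, open circles are genes under 5 FPKM, red ticks give the difference from each control separately, and the grey band holds 90% of all tested genes. Of the tested genes, Myl9, Cnn2 and Tpm1 lie to the right of the band (0.47, 0.43 and 0.29). The band does not cover genes under 5 FPKM. Of these, Actg2, Tagln and Acta2 lie to its right (0.57, 0.48 and 0.30). Myh11 (-1.10) and Cnn1 (-0.48) lie to its left.

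Myl9 had the clearest difference among the tested members. It encodes a regulatory light chain of class II myosin and was listed here with the smooth muscle members. Myh11, the smooth muscle heavy chain, was at only 0.364 to 1.13 FPKM, and which heavy chain the Myl9 product joins was not tested. In mm9 Myl9 lies on the plus strand at chr2:156601200-156607393 with 4 exons. It was at 26.6, 30.4, 37.4 and 41.5 FPKM. Both Foxf2-/- embryos were above both controls, and the lowest mutant exceeded the highest control. The means were 28.5 ± 2.69 FPKM (SD, n = 2) in controls and 39.4 ± 2.91 FPKM (SD, n = 2) in Foxf2-/- embryos, a 1.38-fold difference. The log2 difference was 0.47 ± 0.11 (SE) with an adjusted p of 0.143 in limma, which missed the threshold. Among the regulatory light chains, Myl9 made up 30.4%, 30.2%, 39.1% and 39.1% of the summed FPKM of Myl9 and Myl12b, another regulatory light chain. Myl12b itself was at 60.9, 70.4, 58.1 and 64.5 FPKM, and its groups overlapped. The spread of this share within each group was small, 30.3% ± 0.18 (SD, n = 2) against 39.1% ± 0.0006 (SD, n = 2). Myl12a was not among the symbols used here, so the share leaves it out.

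The smooth muscle actins were low. Acta2, the alpha actin of vascular smooth muscle and of myofibroblasts (chr19:34315581-34329826, minus strand, 9 exons), was at 3.00, 2.87, 3.33 and 3.95 FPKM. Both Foxf2-/- embryos were above both controls, by a log2 difference of 0.30, and limma with a filter of 0.5 FPKM gave an adjusted p of 0.445. Without Foxf2-/- embryo 2 the log2 difference of Acta2 was 0.18. Actg2, the gamma actin of visceral smooth muscle (chr6:83462903-83486245, minus strand, 9 exons), was at 0.064, 0.027, 0.094 and 0.139 FPKM. The mutants were again the higher pair, but all 4 values were far under 1 FPKM (limma without a filter, adjusted p = 0.524), and the log2 difference of Actg2 ran from 0.09 with a pseudocount of 1 to 1.24 with 0.01. Together the pair took 0.232%, 0.207%, 0.251% and 0.270% of the FPKM of 6 actin genes. Actb, the cytoplasmic beta actin, was at 919, 1006, 979 and 1112 FPKM, and its groups overlapped. Of the 50-base windows of the longest Acta2 transcript, 0.404% were also found in another gene, Actg1, and no window of Actg2 was.

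Myh11 had the largest log2 difference of the 10 genes on log2(FPKM + 0.1), and the mutants were lower. It encodes the smooth muscle myosin heavy chain (chr16:14194620-14291501, minus strand, 42 exons) and was at 1.13, 0.84, 0.364 and 0.443 FPKM. Both Foxf2-/- embryos were below both controls. The means were 0.985 ± 0.20 FPKM (SD, n = 2) in controls and 0.404 ± 0.056 FPKM (SD, n = 2) in mutants. The log2 difference was -1.10 ± 0.32 (SE), -1.29 against Foxf2+/+ and -0.91 against Foxf2+/-. The size depends on the pseudocount: the log2 difference of Myh11 was -0.50 with a pseudocount of 1 and -1.26 with 0.01, where Cnn1 was at -1.83 and exceeded it. It did not pass limma with a filter of 0.5 FPKM (adjusted p = 0.299), a filter of 1 FPKM (adjusted p = 0.330) or none (adjusted p = 0.388). Among 4 class II heavy chains, Myh11 took 1.98%, 1.55%, 0.697% and 0.883% of the summed FPKM. Of the 50-base windows of its transcript, 0.395% occurred in Myh9 or Myh10. Nearly all of its signal came from 1 of its 2 transcript entries.

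Skeletal muscle markers were near 0, and no gene was tested. Both mutants were below both controls in 6 of the 20 and above them in 2. The groups overlapped in 12, of which 3 were at 0 in every embryo. Of all genes above 0 in at least 1 embryo and under 5 FPKM in every embryo, 35.6% did not overlap in either direction. The mutants were higher in 14.3% of such genes. The summed level of 20 skeletal muscle markers was 4.62 and 4.43 FPKM in the controls and 3.37 and 4.00 FPKM in Foxf2-/- embryos. The defining factors Myog and Myf6, and the creatine kinase gene Ckm, were at 0 in every embryo, and Myod1 was at 0.033 FPKM in the Foxf2+/+ embryo and at 0 in the others. The highest markers were Tnnt1 (1.31, 1.58, 0.831 and 0.752 FPKM), Myl4 (0.693, 0.539, 1.03 and 0.980 FPKM) and Actc1 (0.506, 0.609, 0.350 and 0.155 FPKM). Their part in the Myh11 values was not tested.

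The genes whose profile over the 4 embryos was nearest to that of Myh11, by root mean square difference of centred log2 values among tested non-members, were Col25a1 (difference 0.093), Col9a2 (0.109) and Nrsn2 (0.115). Col25a1, a transmembrane collagen gene, was at 9.35, 6.91, 3.62 and 4.70 FPKM. Col9a2, a collagen gene of cartilage, was at 5.32, 3.86, 2.00 and 2.70 FPKM, and Nrsn2 at 5.63, 4.34, 2.08 and 2.96 FPKM. None of the 3 passed limma (adjusted p = 0.102, 0.233 and 0.214). For Actg2, the member with the next widest range, the nearest genes were Klf7 (0.085), Ube2s (0.086) and Fgf2 (0.088). The likeness was taken over 4 samples and is a description.

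The non-muscle heavy chains carried most of the myosin. Myh10, which encodes non-muscle myosin IIB (chr11:68505417-68630126, plus strand, 41 exons), was at 46.1, 43.6, 42.2 and 39.1 FPKM. The mutants were the lower pair, but the log2 difference was -0.14 ± 0.09 (SE; limma, adjusted p = 0.522), inside the range of most genes, and it was -0.09 without Foxf2-/- embryo 2. Myh9, which encodes non-muscle myosin IIA (chr15:77591019-77672545, minus strand, 41 exons), was at 9.74, 9.85, 9.68 and 10.5 FPKM. Its groups overlapped. The log2 difference of Myh9 was 0.04 with a 95% limma interval of -0.18 to 0.26 (adjusted p = 0.873), and it turned to -0.02 without Foxf2-/- embryo 2. Myh10 made up 80.9%, 80.3%, 80.7% and 78.0% of class II heavy chain FPKM, and Myh9 17.1%, 18.2%, 18.5% and 20.9%. Myh14, the third non-muscle heavy chain, was under 0.1 FPKM in each embryo.

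Tpm1 encodes tropomyosin 1, which winds along the actin filament and is made as muscle and non-muscle isoforms from 1 gene (chr9:66870400-66897020, minus strand). It was at 228, 243, 277 and 296 FPKM. Both Foxf2-/- embryos were above both controls, by a log2 difference of 0.29 ± 0.10 (SE), and limma gave an adjusted p of 0.257. Its share of the FPKM of 4 tropomyosin genes was 50.1%, 51.3%, 55.6% and 57.7%. Tpm2 and Tpm4, its relatives, had lower mutant values, with log2 differences of -0.15 and -0.08 (limma, adjusted p = 0.475 and 0.717).

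The Tpm1 signal was split over 10 RefSeq entries with 2 starts of transcription. The 6 entries that start at base 66897020 of chromosome 9 summed to 205, 200, 257 and 277 FPKM. The 4 entries that start inside the gene, at base 66891678, summed to 22.2, 42.1, 19.8 and 18.5 FPKM. In the annotation used (GENCODE, mm9), coding sequences from the upstream start had a median of 852 bases and those from the internal start 744 bases. The internal start thus gave 9.74%, 17.4%, 7.16% and 6.25% of Tpm1, highest in the Foxf2+/- embryo. The higher Tpm1 of the mutants lay in the entries from the upstream start, in which the lower Foxf2-/- embryo (257 FPKM) exceeded the higher control (205 FPKM). Division of reads among entries that share exons is an estimate. No transcript entry was called by limma, 0 of 7795 tested entries (0.0%), with 890 at an unadjusted p under 0.05.

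**Figure D3:**
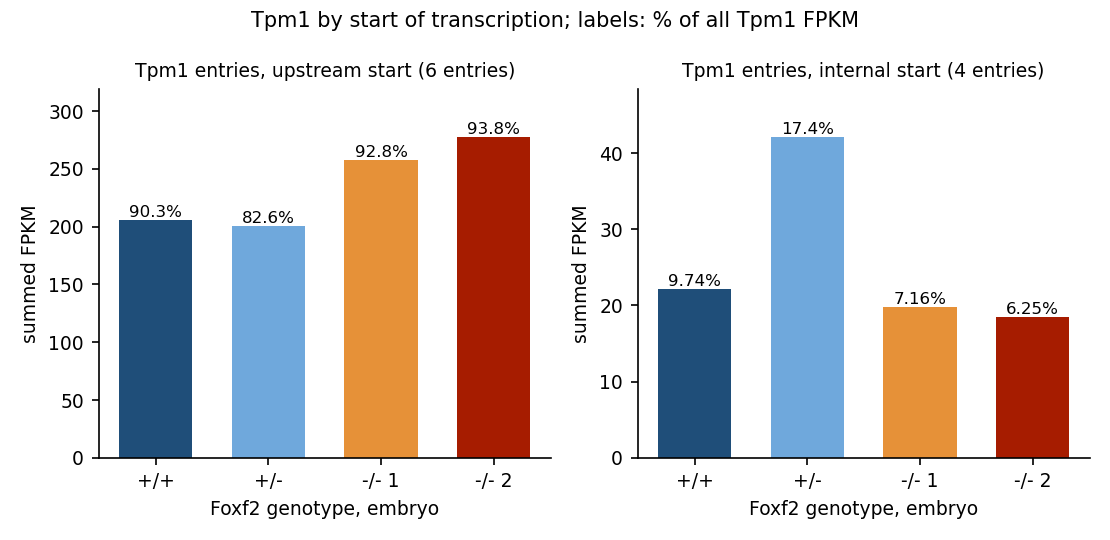
Summed FPKM of Tpm1 entries by start of transcription, 1 bar per embryo, with the percentage of all Tpm1 FPKM above each bar; the panels have different scales. Entries from the upstream start reach 257 and 277 FPKM in the Foxf2-/- embryos against 205 and 200 in the controls, and the internal start is highest in the Foxf2+/- embryo, at 42.1 FPKM.

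The calponins and transgelin bind actin filaments and dampen or stabilise contraction. Cnn2, the calponin found in many cell types (chr10:79451345-79458145, plus strand, 7 exons), was at 38.1, 51.3, 53.6 and 66.0 FPKM. Both mutants were above both controls, but the Foxf2+/- embryo was closer to Foxf2-/- embryo 1 than to the Foxf2+/+ embryo. The log2 difference was 0.43 ± 0.15 (SE; limma, adjusted p = 0.271). The mutant mean was 1.56-fold the Foxf2+/+ value and 1.16-fold the Foxf2+/- value. Without the Foxf2+/- embryo, the log2 difference of Cnn2 was 0.64 and passed limma (adjusted p = 0.0446), the 1 member and setting that did, where 128 of 7377 genes were called. The control arm of that fit holds 1 embryo, so its spread is estimated from the Foxf2-/- pair and the control is assumed to vary like it. The log2 difference of Cnn2 was 0.21 without the Foxf2+/+ embryo and 0.28 without Foxf2-/- embryo 2.

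The other calponin and transgelin members were near the limit of what the files resolve. Cnn1, the calponin of differentiated smooth muscle (chr9:21903697-21913665, plus strand, 7 exons), was at 0.075, 0.032 and 0.018 FPKM and is listed at 0 in Foxf2-/- embryo 2. On log2(FPKM + 0.1) the difference of Cnn1 was -0.48 (limma without a filter, adjusted p = 0.558), and it ran from -0.06 with a pseudocount of 1 to -1.83 with 0.01, so no fold is given. Tagln, which encodes transgelin or SM22 (chr9:45737711-45744141, minus strand, 5 exons), was at 0.646, 0.484, 0.870 and 0.771 FPKM. Both mutants were higher, by a log2 difference of 0.48, with an adjusted p of 0.565 in limma with a filter of 0.5 FPKM. It was 0.30 without the Foxf2+/- embryo and 0.22 with a pseudocount of 1. Tagln took 1.12%, 1.02%, 1.90% and 1.48% of the FPKM of 3 transgelins, the rest of which was mostly Tagln2.

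**Figure D4:**
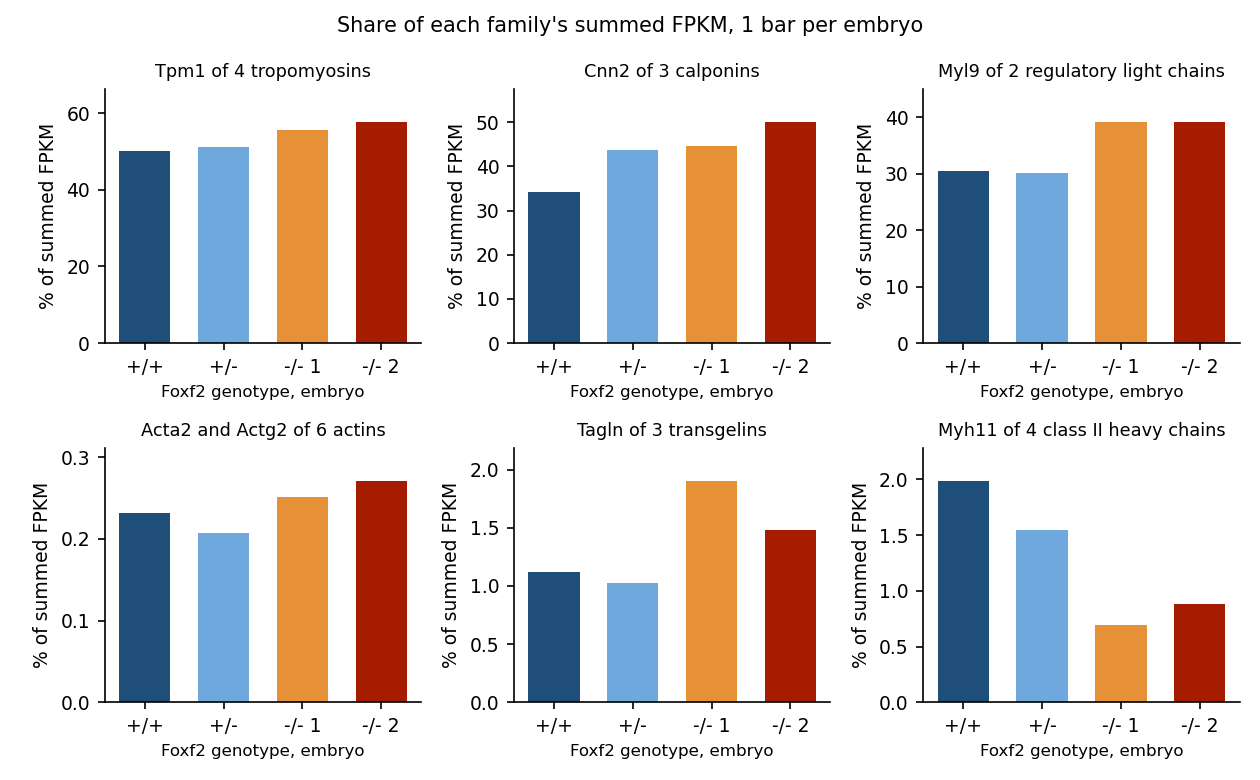
Percent of a family's summed FPKM taken by the member named in each panel title, 1 bar per embryo, with axes that start at 0 and differ between panels. Myl9 rests at 30.4% and 30.2% in the controls and at 39.1% in both Foxf2-/- embryos, and Myh11 lies at 0.697% and 0.883% in the mutants against 1.98% and 1.55%.

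Other genes of the contractile programme were read from lists beside the members. Of 16 other smooth muscle genes, 4 were tested and none was called. Their median log2 difference was 0.05. Csrp1, which encodes a LIM protein of smooth muscle, had the largest difference: it was at 14.7, 15.6, 19.8 and 24.2 FPKM, with both mutants above both controls (log2 difference 0.53 ± 0.11 SE; limma, adjusted p = 0.123). Itga8 (log2 difference -0.18) and Smtn, or smoothelin (0.08), followed, and the groups of both overlapped. Of the 16, 8 were under 1 FPKM in every embryo.

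Of 22 other actomyosin and actin-binding genes, 21 were found, 20 were tested and none was called, with a median log2 difference of 0.01. Vcl, which encodes vinculin and links actin to adhesions, was at 14.0, 15.5, 17.9 and 19.2 FPKM, higher in both mutants (log2 difference 0.33 ± 0.10 SE; limma, adjusted p = 0.233). The next were Myl6b (0.21) and Flnc, or filamin C (0.15). Both mutants were above both controls in 4 of the 20 and below them in 2, beside 8.66% of all tested genes higher and 47.4% in either direction.

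Of 15 contractility regulators, 12 were tested and none was called, with a median log2 difference of -0.07. Ppp1r12a, the targeting subunit of myosin phosphatase, was at 25.0, 23.3, 21.5 and 19.4 FPKM (log2 difference -0.24; limma, adjusted p = 0.308). Rhoc, a small GTPase, and its relative Rhob had log2 differences of 0.23 and 0.20. The groups did not overlap in 6 of the 12, 2 higher and 4 lower, beside 47.4% of all tested genes in either direction and 8.66% higher.

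Of 15 SRF and myocardin-related regulators, 12 were tested and none was called, with a median log2 difference of 0.04. Srf was at 7.77, 7.79, 9.12 and 10.1 FPKM, higher in both mutants (log2 difference 0.30 ± 0.10 SE; limma, adjusted p = 0.263). Tgfb1i1, which encodes the LIM cofactor Hic-5, had a log2 difference of 0.23 with overlapping groups, and Csrp2 one of -0.22. Myocd, which encodes myocardin, reached at most 0.073 FPKM, whereas Mkl2 was at 21.3 to 23.7 FPKM.

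**Figure D5:**
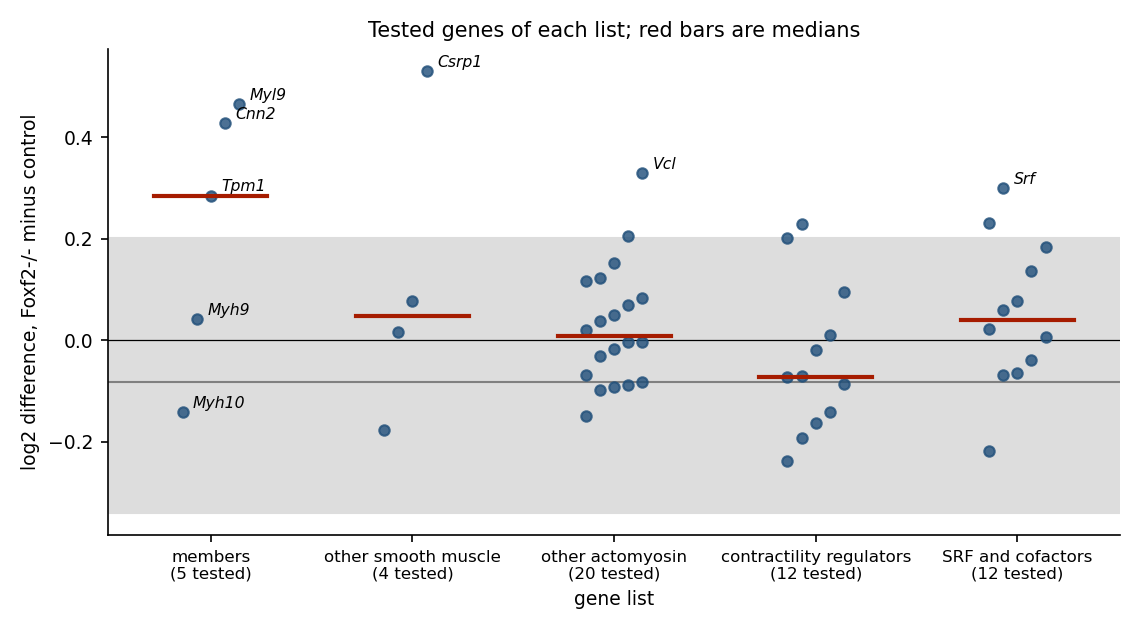
Log2 difference, Foxf2-/- minus control, of every tested gene in the members' set and 4 related lists; each point is 1 gene, red bars are list medians, and the grey band holds 90% of all tested genes. Myl9, Cnn2, Tpm1, Csrp1, Vcl and Srf lie above the band, as do the unlabelled Tgfb1i1, Rhoc and Myl6b (0.23, 0.23 and 0.21), closer to its edge. The medians of the 4 related lists lie between -0.07 and 0.05.

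Srf and Vcl, like Cnn2 and Myl9, have a CArG box in the 250 bases before the start, and are shown for comparison with the members (GRCm38.p6, capitals mark CArG boxes).

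Srf, chr17:46556211-46556268, minus strand: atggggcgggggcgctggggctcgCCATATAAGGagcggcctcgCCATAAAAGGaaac

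Vcl, chr14:20929148-20929204, plus strand: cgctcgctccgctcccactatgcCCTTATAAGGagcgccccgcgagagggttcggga

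The boxes of Srf began 82 and 62 bases before its start and that of Vcl 227 bases before. Such a box was also held by the promoters of Actg1, Myl6 and Fhl2, whose log2 differences were -0.02, -0.0028 and -0.18. Fhl2, a LIM cofactor gene with a box in 2 promoters, was under 5 FPKM and not tested. Among tested genes with a reference promoter, 85 of 5374 had a CArG box. Their median log2 difference was -0.02, against -0.08 over the 5374, and none was called by limma (6 of the 5374 were). Both mutants lay below both controls in 24 of the 85 (28.2%, against 39.3% of the 5374) and above them in 18 (21.2%, against 8.49%). With Cnn2 and Myl9 left out, 24 of 83 were lower (28.9%) and 16 higher (19.3%). This is a count beside a count, with no test. These shares are on the deposited scale, on which most genes whose groups did not overlap were lower in the mutants. Rescaling by median ratios raised the share higher in the mutants from 8.66% to 21.9% of all tested genes. The shares for genes with a CArG box were not recomputed on that scale.

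The other cell types that the sort could hold were read from marker lists. Summed blood and macrophage markers were 313 and 1805 FPKM in the controls and 1569 and 4267 FPKM in the mutants, led by the hemoglobin genes Hbb-y (152, 1033, 827 and 2202 FPKM) and Hba-x (125, 674, 654 and 1877 FPKM). Foxf2-/- embryo 2 was highest and the Foxf2+/+ embryo lowest, as for Myl9, Tpm1 and Cnn2, and the part of blood RNA in those values was not tested. Rescaling by median ratios with the hemoglobin genes left out called no member either. Pericyte and vascular mural markers, from cells that themselves use smooth muscle genes, summed to 69.9 and 64.5 FPKM in the controls and 62.1 and 69.2 FPKM in the mutants, mostly Pdgfrb (36.4 to 40.6 FPKM), which palatal mesenchyme also expresses. Each of the 8 endothelial markers was under 1 FPKM in every embryo, with sums of 0.919, 1.59, 1.87 and 2.67 FPKM. Epithelial markers summed to 7.72, 8.44, 8.83 and 9.92 FPKM and neural and Schwann markers to 4.26, 5.64, 10.1 and 6.74 FPKM. In the endothelial, epithelial and neural lists both mutant sums were above both control sums, as for Myl9, Tpm1 and Cnn2. All genes of the endothelial, epithelial and neural lists were under 5 FPKM, so none of them was tested with limma. No tested blood, macrophage or mural marker was called. The part of these cell types in the member values was not tested. The 14 palatal mesenchyme markers summed to 1141 and 1088 FPKM in the controls and 1015 and 1130 FPKM in the mutants. Single markers differed under this sum: both mutants were below both controls in 7, above them in 2, and the groups of 5 overlapped. Of all tested genes, 47.4% did not overlap in either direction and 8.66% were higher. None of the 14 was called by limma.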

How the data were processed

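RNA-seq of sorted RFP-positive palatal cells from 4 embryos was used as deposited, 1 table per embryo. The authors mapped reads to mm9 using Tophat, with Bowtie 0.12.7 named in the submitters' processing notes, and deposited FPKM and read coverage, the latter an unscaled mean depth signal, for 28107 RefSeq transcript entries in tables of the Cufflinks form; the version and options of that step are not given in the sources used here. FPKM are not counts, so no count model was fitted. Estimates divide reads among entries that share exons, and FPKM of highly expressed genes shift all other values.

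After entries shorter than 200 bases or without an estimate in each embryo were dropped, FPKM were summed per symbol (27061 entries, 21282 genes). Values were analysed as log2(FPKM + 0.1). Genes reaching 5 FPKM in at least 1 embryo were fitted with limma 3.58.1 in R 4.3.3 with a variance trend, Foxf2-/- against both controls, adjusted over all 7377 genes. The script was tested on simulated data. Tables and figures used Python 3.11.15, pandas 2.3.3, numpy 2.4.6, scipy 1.17.1 and matplotlib 3.10.9. Gene models and windows came from GENCODE vM1 (mm9) and promoters from RefSeq (GRCm38.p6), matched by symbol.

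The members and lists were chosen with earlier results of these data known. Genes named were the 10 members, Foxf2 and Foxf1a, the 3 tested genes with the largest change in each related list, the highest markers, and the 3 genes nearest in profile to the 2 members with the widest range. Defining skeletal muscle factors, Myocd, Mkl2, Myl12b, Tpm2, Tpm4, Tagln2, Myh14, Actb, Actg1 and Myl6 were named in addition, as relatives or cofactors. Alternatives varied the pseudocount, filter, scaling, entries, model and embryos.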

Additional observations from a re-analysis of the deposited data

How the results depend on the processing

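Each tested member was recomputed under 17 alternative settings, of which 2 were chosen after seeing the data. Myl9, Tpm1, Cnn2 and Myh10 kept their direction in all 17. Their groups did not overlap, so leaving out 1 embryo or changing the pseudocount could not turn it. A changed filter, a separate mean for each genotype and limma without a variance trend leave the difference as it was. Only rescaling or the choice of entries could have turned it, so the shared direction was mostly fixed in advance. Myh9, whose groups overlapped, turned in 1. Its log2 difference ran from -0.017 to 0.12 over the 17 settings, and from -0.017 (without Foxf2-/- replicate 2) to 0.10 (without Foxf2-/- replicate 1) with 1 embryo left out. Leaving out 1 embryo at a time gave 0 to 1 members called, 0 to 1 members past 1.5-fold against both controls, and 0 to 7 genes called over the related and marker lists. The 1 member called was Cnn2 without the Foxf2+/- embryo, which is control replicate 2, and the 7 list genes came from the same setting. Over the 17 settings the log2 difference of Myl9 ran from 0.37 to 0.58 and its limma adjusted p from 0.0581 to 0.567. Tpm1 ran from 0.24 to 0.45 and Cnn2 from 0.21 to 0.64.

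Members past 1.5-fold against both controls numbered 1 with a filter of 1 FPKM, with no filter and with the filter of 0.5 FPKM that was chosen after seeing the data, because these filters admit Myh11, and 1 when the threshold was lowered to a log2 difference of 0.32. Members whose groups do not overlap numbered 4 of 5 with the filter of 5 FPKM and 9 of 10 with no filter. Filters of 1 and 0.5 FPKM, which admit part of the low members, gave 6 and 7. The number thus rose as more members were admitted. Over all genes, groups did not overlap in 47.4% of those tested. The share was 35.6% of genes above 0 in at least 1 embryo and under 5 FPKM in every embryo. Calls over the lists also moved with a separate mean for each genotype. Each control mean in that fit rests on 1 embryo, so its spread is estimated from the Foxf2-/- pair alone. The lists had 3 genes called with the number of null alleles as a linear term, and the cause was not tested.

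Genes called over the whole table, 7 in the reported fit, numbered 21 and 13 with pseudocounts of 1 and 0.01, 0 without a filter, 12 after rescaling by median ratios, 21 at equal sums, 26 with every entry, 1 with only the highest entry, 126 with separate genotype means, 52 with the linear term, 24 without the Foxf2+/+ embryo and 128 without the Foxf2+/- embryo. No paired analysis was possible because the replicate numbers of the controls stand for genotypes and are not tied to mutant embryos by litter or day. The 5 members under 5 FPKM kept their direction where recomputed. Their groups did not overlap, so leaving out 1 embryo or changing the pseudocount could not turn it. Their size moved: Acta2 ran from 0.18 to 0.41, Tagln from 0.22 to 0.65, Actg2 from 0.09 to 1.24, Cnn1 from -1.83 to -0.06 and Myh11 from -1.29 to -0.50. Read numbers behind values under 1 FPKM were not given, but mean read coverage was, here for Foxf2+/+, Foxf2+/- and Foxf2-/- embryos 1 and 2. It was 1.53, 1.35, 0.507 and 0.687 for Myh11 and 0.877, 0.780, 1.21 and 1.20 for Tagln. For Actg2 it was 0.087, 0.044, 0.130 and 0.215, and for Cnn1 0.101, 0.052, 0.025 and 0. Values of Actg2 and Cnn1 thus rest on much less signal than those of Myh11 and Tagln.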

Other observations

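Several markers of pericytes, chosen here after their values were seen, stood out in 1 embryo. Kcnj8, which encodes a potassium channel subunit, was at 0.064, 0.054, 0.146 and 0.721 FPKM in the Foxf2+/+, Foxf2+/- and both Foxf2-/- embryos, and its partner Abcc9 at 0.256, 0.473, 0.352 and 1.65 FPKM. Higd1b was at 0.066, 0.169, 0 and 0.462 FPKM. Foxf2-/- embryo 2 was highest for each. Of the 10 pericyte and vascular mural markers, 6 were highest in that embryo, and the share of all genes with this pattern was not computed. The other 4 were Rgs5 (4.82, 3.86, 3.90 and 3.23 FPKM), Anpep (10.1, 9.06, 8.03 and 8.73 FPKM, lower in both mutants), Pdgfrb (40.6, 38.6, 36.4 and 38.8 FPKM) and Des (0.208, 0.180, 0.088 and 0.183 FPKM). Kcnj8, Abcc9 and Higd1b were under 5 FPKM and were not tested.

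Hspb1, which encodes a small heat shock protein that binds actin, was at 0.433, 0.283, 1.06 and 0.751 FPKM, higher in both Foxf2-/- embryos. Synpo2, a partner of filamin in smooth muscle, was at 4.84, 4.39, 3.31 and 3.84 FPKM, lower in both. Both genes were named after their values were seen, were under 5 FPKM and were not tested.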
